A study of Mus musculus with 3 samples.

Results

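The accessible regions listed for sciATACv2 (v2), the second version of a single-cell ATAC-seq protocol that uses nanowells, were compared with those listed for the first version, sciATACv1 (v1). All peaks of both lists were used, 622754 from v1 and 850991 from v2, which makes 1473745 of the 1985768 peaks in the series. Both libraries came from nuclei of whole brain of C57BL6 mice with no treatment named. The nuclei were dounced out of minced tissue, tagmented with barcoded complexes in plates of 96 wells, pooled, and indexed again by PCR in a chip of 5184 nanowells. The third version, sciATACv3 (v3, 512023 peaks), was prepared from the same tissue and strain and served only as an outside reference. What was changed between the versions, how many animals or nuclei entered each library, and the age and sex of the mice were not stated in the material used here. Each version is 1 library, so there is no spread between replicates, no test was run, and every interval covers counting error only.

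ATAC-seq relies on the transposase Tn5, which inserts adapters where DNA is not wrapped tightly in chromatin. Pile-ups of insertions are called as peaks and mark promoters, enhancers and other open elements. Promoters rich in CpG dinucleotides, typical of housekeeping and many developmental genes, tend to be open in most cell types, while CpG-poor promoters with a TATA box are more often open only in the cells that use the gene. Whole brain mixes neurons, glia and vascular cells, and a pooled peak list therefore holds elements of all of them. In such bulk lists, fewer cells of a type and less signal per cell cannot be told apart.

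Promoter sequences of 8 genes are shown first, because they span the outcomes seen at gene starts. Each line gives the 250 bases upstream of an annotated start, 5′ to 3′ on the strand of the gene (RefSeq, GRCm38.p6). Capitals mark any match, on either strand, to the searched motifs, which were GGGCGG (GC box), CCGGAAG (ETS type), TGACGTCA (cyclic AMP response element), CCAAT (NF-Y type), TATAAA (core promoter box), the E-boxes CAGCTG (MyoD type) and CAGATG (NeuroD type), and TGACTCA (AP-1 type).
Prox1: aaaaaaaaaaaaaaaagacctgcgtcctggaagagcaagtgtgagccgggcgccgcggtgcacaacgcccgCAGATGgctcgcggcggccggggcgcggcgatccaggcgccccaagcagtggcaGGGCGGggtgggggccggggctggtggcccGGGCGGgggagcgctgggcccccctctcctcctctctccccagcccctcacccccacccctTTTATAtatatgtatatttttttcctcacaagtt
Zic1: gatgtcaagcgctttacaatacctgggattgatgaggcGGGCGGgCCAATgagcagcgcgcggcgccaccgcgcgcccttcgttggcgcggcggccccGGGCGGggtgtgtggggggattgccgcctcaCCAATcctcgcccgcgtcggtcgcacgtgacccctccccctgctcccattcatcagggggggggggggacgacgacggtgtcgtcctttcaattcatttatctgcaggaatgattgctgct
Wdpcp: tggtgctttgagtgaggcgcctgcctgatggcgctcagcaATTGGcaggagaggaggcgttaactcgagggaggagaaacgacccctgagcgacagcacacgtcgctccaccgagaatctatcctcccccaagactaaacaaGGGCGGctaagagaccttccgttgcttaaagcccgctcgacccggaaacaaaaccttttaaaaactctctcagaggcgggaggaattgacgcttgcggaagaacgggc
Myom3: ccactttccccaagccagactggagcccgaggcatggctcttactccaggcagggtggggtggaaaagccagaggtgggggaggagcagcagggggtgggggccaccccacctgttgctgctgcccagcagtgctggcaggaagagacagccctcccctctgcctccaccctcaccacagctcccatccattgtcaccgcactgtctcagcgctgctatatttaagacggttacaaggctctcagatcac
Alas2: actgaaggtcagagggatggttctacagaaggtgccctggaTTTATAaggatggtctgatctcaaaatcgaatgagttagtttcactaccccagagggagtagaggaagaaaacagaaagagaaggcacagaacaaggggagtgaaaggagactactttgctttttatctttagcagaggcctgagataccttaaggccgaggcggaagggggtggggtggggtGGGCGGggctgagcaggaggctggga
Pvalb: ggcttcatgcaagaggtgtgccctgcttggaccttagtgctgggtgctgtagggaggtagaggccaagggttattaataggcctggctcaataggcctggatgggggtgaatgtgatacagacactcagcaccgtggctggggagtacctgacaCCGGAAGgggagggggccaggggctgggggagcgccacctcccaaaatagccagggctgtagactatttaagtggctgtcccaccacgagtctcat
Pcp2: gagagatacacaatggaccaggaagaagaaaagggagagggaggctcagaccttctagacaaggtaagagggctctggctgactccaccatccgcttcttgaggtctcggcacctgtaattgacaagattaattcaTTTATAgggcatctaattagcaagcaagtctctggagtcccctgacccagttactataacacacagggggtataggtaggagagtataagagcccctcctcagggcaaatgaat
Gabra6: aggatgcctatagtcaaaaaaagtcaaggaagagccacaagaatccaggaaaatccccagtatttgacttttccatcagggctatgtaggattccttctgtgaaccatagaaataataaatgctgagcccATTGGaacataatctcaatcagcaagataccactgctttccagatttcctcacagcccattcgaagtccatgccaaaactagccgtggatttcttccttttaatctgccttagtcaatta

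The Prox1, Zic1 and Wdpcp windows held a peak in both lists although the genes around them differed between the versions. They lie at chr1:190170828-190171077 (minus strand), chr9:91365769-91366018 (minus) and chr11:21572031-21572280 (plus). The Prox1 window carried 4 motif matches, 2 of them GGGCGG, and lay under a peak of 1014 bp in v1 and of 802 bp in v2. Myom3 at chr4:135759465-135759714 (plus) carried no match, and Alas2 at chrX:150547167-150547416 (plus) carried TATAAA and GGGCGG. One of the Pvalb starts, at chr15:78206401-78206650 (minus), carried CCGGAAG, and Pcp2 at chr8:3625283-3625532 (minus) carried TATAAA. These 4 windows held a peak in v2 only, of 1194, 783, 500 and 500 bp. Gabra6 at chr11:42321073-42321322 (minus) carried CCAAT and lay under a v1 peak of 569 bp with none in v2. Zic1, Pcp2, a gene of Purkinje cells, and Gabra6, a receptor subunit gene of cerebellar granule cells, fall outside the rule for printed promoters and were chosen after their values were seen. A match is a description of letters and does not show binding.

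The v2 list contained most of the v1 list and added many short peaks to it. Of the v1 peaks, 565701 were met by a v2 peak, meaning an overlap of at least 1 bp, and 57053 were not. Of the v2 peaks, 549048 were met by v1 and 301943 were not. The v1 peaks of 500 bp, the smallest width in the lists, were met by v2 in 86.0% of cases, and the v1 peaks over 1500 bp in 99.6%. The v2 peaks of 500 bp were met by v1 in 48.9% of cases, those above 500 and up to 1000 bp in 74.6%, those above 1000 and up to 1500 bp in 89.0% and those over 1500 bp in 97.0%. The widest peaks of each list were thus nearly all met by a peak of any width in the other, and the narrow ones less often. A wider peak also has more room to be met. The v2 list was richer in wide peaks, with 66975 (7.87%) over 1500 bp against 35336 (5.67%) in v1. Its peaks covered 669 Mb against 454 Mb in v1.

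**Figure D1:**
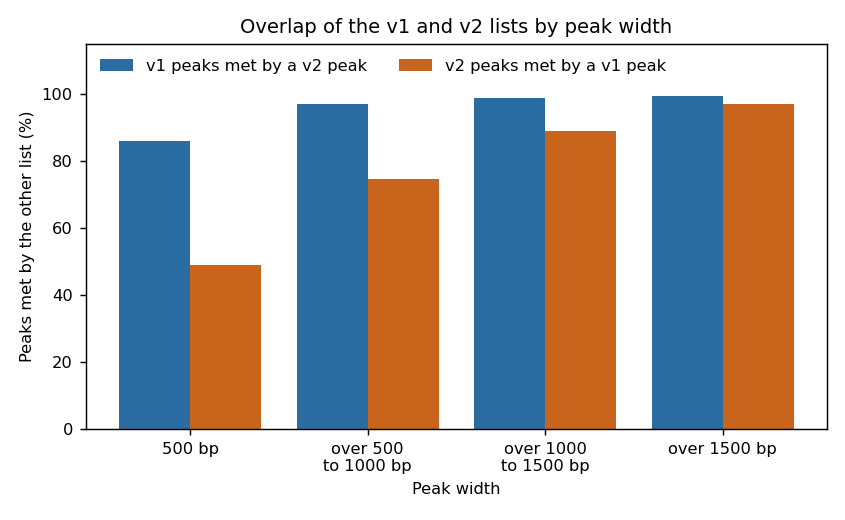
Percent of peaks met by the other list (vertical axis) for 4 classes of peak width (horizontal axis), with v1 peaks in blue and v2 peaks in orange. The v2 bars climb from 48.9% at 500 bp to 97.0% above 1500 bp, while the v1 bars lie between 86.0% and 99.6%.

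Unmet peaks were short and often close to a peak of the other list. The 57053 unmet v1 peaks were 500 bp wide in 91.3% of cases and lay a median of 740 bp from the nearest v2 peak. The 301943 unmet v2 peaks were 500 bp wide in 76.5% of cases and lay a median of 1036 bp from the nearest v1 peak. Within 1 kb of a peak of the other list lay 57.3% of the unmet v1 peaks and 49.0% of the unmet v2 peaks. The v3 library, which neither list used, held a peak at 29.2% of the unmet v1 peaks and at 28.5% of the unmet v2 peaks, against 74.9% and 75.4% of the met ones. Over all widths, unmet peaks of both lists were therefore found in v3 at nearly the same rate. Within width classes the lists differed. At 500 bp the rates were 28.3% for v1 and 25.5% for v2, and above 500 and up to 1000 bp 40.5% and 35.6%. Above 1000 and up to 1500 bp they were 32.7% and 47.6%. Above 1500 bp v3 held a peak at 21.0% of the 143 unmet v1 peaks and at 61.9% of the 2040 unmet v2 peaks.

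Where a region appeared in both lists, its position changed little, and the median change in width was small in every width class. Of the v1 peaks, 519589 (83.4%) met exactly 1 v2 peak and 46112 (7.40%) met more than 1. Of the v2 peaks, 59305 (6.97%) joined several v1 peaks, up to 8 in a single v2 peak, while a single v1 peak held up to 6 v2 peaks. The lists shared 413209 one-to-one pairs. The midpoints of a pair lay a median of 43 bp apart (quartiles 13 and 144 bp), and 52.8% of pairs lay within 50 bp. The v2 peak was the wider of the pair in 43.3% of pairs, equal in 39.0% and narrower in 17.6%. Since no peak could be below 500 bp, a v1 peak of that width could not become narrower. Among pairs whose v1 peak was above 500 and up to 1000 bp wide, 55.9% were wider and 43.6% narrower in v2, with a median change of 13 bp. Above 1500 bp the shares were 50.9% and 48.6%, with a median change of 3 bp.

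The X chromosome took a larger share of the v2 peaks than any autosome did relative to v1. It held 12294 peaks in v1 and 22022 in v2, and its share ratio, the share of all v2 peaks over the share of all v1 peaks, was 1.31 (95% interval 1.28 to 1.34) against 0.938 to 1.06 over the 19 autosomes. Only 45.0% of the v2 peaks on X were met by v1, whereas the autosomes ranged from 61.2% to 68.8%. The ratio was 1.36 among peaks of 500 bp and 1.43 above 500 and up to 1000 bp. It was 1.23 above 1000 and up to 1500 bp and 1.04 (0.942 to 1.15) above 1500 bp, where the autosomes ran from 0.911 to 1.17. The X was thus outside the autosomal range for narrow and middling peaks and inside it for the widest. It was 1.27 for X peaks inside genes and 1.34 for those outside.

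Among X peaks that v3 also held, the ratio was 1.07 (1.04 to 1.10) with autosomes at 0.978 to 1.05. Among X peaks absent from v3 it was 1.505 (1.45 to 1.56), with autosomes at 0.844 to 1.32. Along the chromosome in steps of 10 Mb, the ratio ran from 1.10 (0.997 to 1.21) at 50 to 60 Mb to 1.88 (1.65 to 2.14) at 110 to 120 Mb, and only the last step, with 8 v1 and 6 v2 peaks, was below 1. Of 142 compared X windows of 1 Mb, 137 were above 1, so the excess covered nearly the whole chromosome.

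Genes of the X-inactivation centre, which produces the RNA that coats the inactive X of female cells, were compared singly. The counts in v1, v2 and v3 were 4, 14 and 11 for the Xist gene, with a share ratio of 2.56 and an interval of 0.804 to 10.7. For Tsix, its antisense gene, which spans Xist and so counts the same peaks, they were 9, 23 and 17, and for Jpx, a noncoding activator of Xist, 5, 12 and 13. Ftx, a noncoding gene of the same region, held 13, 38 and 28 peaks, a share ratio of 2.14 (1.11 to 4.38). Of genes known to escape inactivation, Kdm5c held 20, 28 and 23 (1.02), Kdm6a 47, 73 and 71 (1.14), Ddx3x 7, 9 and 7 (0.941) and Eif2s3x 5, 16 and 11 (2.34). Only for Ftx did the interval exclude 1, and it includes the 1.31 of the whole X. These 8 genes were chosen after their values were seen.

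**Figure D2:**
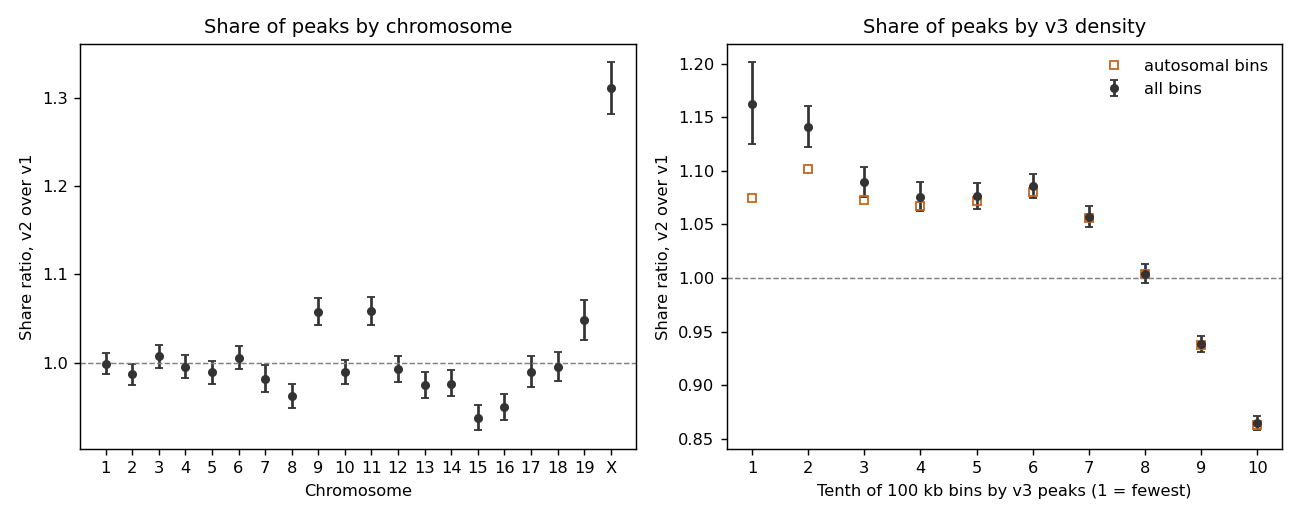
Left, share ratio of v2 over v1 by chromosome with its 95% counting interval. Right, the same ratio for windows of 100 kb sorted into 10 classes by their number of v3 peaks, for all chromosomes (black) and for the autosomal windows (orange). The X stands at 1.31 above the autosomes, and the ratio runs from 1.16 in the windows with the fewest v3 peaks to 0.864 in those with the most.

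The v2 list had a lower share than v1 in the peak-dense parts of the genome. Windows of 100 kb were sorted by their v3 peaks into 10 classes of similar size. The share ratio was 1.16 (1.13 to 1.20) in the class with at most 1 v3 peak and 1.14 in the next, stood between 1.06 and 1.09 over classes 3 to 7, and was 1.004, 0.938 and 0.864 (0.858 to 0.871) in classes 8, 9 and 10. The X made up 22.5% of the windows in the sparsest class, and the autosomal windows of the same classes were flat over classes 1 to 7. Their ratios, as shares of all peaks, were 1.07, 1.10, 1.07, 1.07, 1.07, 1.08 and 1.06 in classes 1 to 7, then 1.004, 0.938 and 0.863. The share of peaks with their midpoint in a gene was 67.6% in v1 and 64.6% in v2. Met peaks lay in genes to the same extent in both lists, 69.3% in v1 and 69.1% in v2. Unmet peaks did so less, 51.3% in v1 and 56.4% in v2, and the v2 list held far more of them. Gene windows, taken as the span of a gene plus flanks of 5 kb, gave a ratio of 0.973 for genes under 10 kb and 0.910 for genes of 300 kb and over.

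At gene starts, most of the windows added by v2 were CpG-poor. Promoter windows of 300 bases, from 250 before to 50 after the start, were given for 21044 starts of 17273 genes. Of these windows 15298 (72.7%) met a v1 peak and 16466 (78.2%) a v2 peak. Both lists had a peak at 15127, v1 alone at 171 (0.813%), v2 alone at 1339 (6.36%) and neither at 4407. The observed over expected CpG ratio had a median of 0.727 in the windows of both lists and 0.234 in those of v2 alone, with 0.235 for v1 alone and 0.150 for neither. Among windows with a CpG ratio of 0.8 and over, 98.7% had a v1 peak and 99.1% a v2 peak. Among those between 0.2 and 0.4 the shares were 52.0% and 63.8%, and below 0.2 they were 27.1% and 37.9%. Of the 1339 windows of v2 alone, 560 were below 0.2 and 500 between 0.2 and 0.4. CpG-rich windows had little room for a gain, since few lacked a v1 peak. Of the windows without a v1 peak, v2 had one at 17.0% of the 3299 below 0.2, 28.6% of the 1751 between 0.2 and 0.4, 53.3% of the 150 between 0.6 and 0.8 and 36.4% of the 77 of 0.8 and over. The v3 library had a peak at 97.2% of the windows of both lists, 38.0% of those of v1 alone, 31.9% of those of v2 alone and 4.49% of those of neither.

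GGGCGG, the GC box recognised by Sp1-type factors, occurred in 61.3% of the windows of both lists, 21.1% of those of v2 alone, 6.43% of those of v1 alone, 5.79% of those of neither and 46.7% of all windows. In the same order, CCGGAAG, an ETS-type sequence, occurred in 15.3%, 3.58%, 1.17%, 2.22% and 11.7%. TATAAA occurred in 7.30%, 16.6%, 19.3%, 29.6% and 12.7%. The E-box CAGCTG, read by muscle and neuronal basic helix-loop-helix factors, occurred in 15.8%, 22.9%, 12.3%, 13.3% and 15.7%. The windows of v1 alone and v2 alone thus had nearly the same median CpG ratio but not the same shares of these motifs. Their median GC content also differed, at 47.3% for v1 alone and 52.0% for v2 alone, beside 60.7% for both and 43.3% for neither. How far base composition goes with the motif shares was not tested. The windows of v1 alone number 171, so their shares rest on few sequences.

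The promoters added in v2 included those of genes used in muscle, blood and skin. Of 9 skeletal muscle genes with a promoter in the table, 4 had a peak in v1 and 8 in v2, and the 4 added were the skeletal actin gene Acta1 and the myosin heavy chain genes Myh1, Myh2 and Myh4. Of 10 erythroid genes, 3 had one in v1, and v2 added Alas2, an enzyme of heme synthesis, the transcription factor gene Gata1 and the globin gene Hbb-bt. Keratin and keratin-associated genes, the structural genes of skin and hair, went from 26.4% to 51.7% of 87 genes. Also added were Cd8a and Lck of 8 lymphocyte genes and Fgg and Hnf4a of 12 hepatocyte genes. So were Hoxa6, Hoxa7 and Hoxb1 of 22 Hox genes and Col6a3 and Col6a6 of 35 collagen genes. Over all 17273 genes the shares were 72.3% and 77.6%, with 1031 genes in v2 alone and 3760 in neither list. The same counts were 4 and 1 for muscle, 3 and 4 for erythroid and 23 and 41 for keratin genes. They were 2 and 4 for lymphocyte, 2 and 6 for hepatocyte and 44 and 861 for olfactory receptor genes. Every gene with a tabulated promoter in the lists of inhibitory, striatal, oligodendrocyte, endothelial, immediate early, housekeeping, proteasome, complex I, potassium channel and long neuronal genes had a peak at one or more of its promoters in both versions. Those lists therefore had no room for a gain in v2. Among 10 cerebellar neuron genes, the v1 list alone had the homeobox gene Barhl1 and Gabra6, and the v2 list alone had Pcp2.

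Gene by gene, the lists ranked alike and most genes had a slightly lower share in v2. Of 21627 protein-coding genes, 10160 had at least 20 peaks over v1 and v2 and were compared. Their median log2 share ratio was -0.09 (quartiles -0.29 and 0.16), and Spearman's correlation of peak counts was 0.918, a description across genes that share neighbours. At least 2-fold higher in v2 were 137 genes (1.35%) and at least 2-fold lower were 15 (0.148%). Counted by interval the balance was the other way. The interval lay above 1 for 168 genes (1.65%) and below 1 for 268 (2.64%). Some of the 137 rest on few peaks and have an interval that includes 1, as for Aimp1 with 6 and 17 peaks (0.780 to 6.42). The X held 19 of the 137 and none of the 15 among its 255 compared genes. On X, 72.2% of compared genes had a ratio above 1, against 38.2% on the autosomes.

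On the lower side, the 12 named genes were those whose interval lay farthest below 1, by its upper bound, and not those with the lowest ratios. Prox1, a homeobox gene of dentate granule cells, held 38 v1 peaks, 16 v2 peaks and 14 v3 peaks, a ratio of 0.308 (0.160 to 0.566). Meis1, a homeobox gene active in developing brain and blood, held 81, 49 and 43, a ratio of 0.443 (0.304 to 0.639). Zfp521, a zinc finger transcription factor gene, held 165, 127 and 52 (0.563). Sfmbt2, a Polycomb gene, held 70, 46 and 24 (0.481). In each of these genes v2 held fewer peaks than v1 although its list is 1.37 times as long.

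Inpp4b, a phosphoinositide phosphatase gene, held 338, 266 and 100 peaks, a ratio of 0.576 (0.489 to 0.678). Svep1, an extracellular matrix gene, held 43, 24 and 18 (0.408), and the netrin gene Ntn4 held 58, 39 and 30 (0.492). Syt9, a synaptotagmin of vesicle release, held 93, 65 and 26 (0.511), and Nxph1, a ligand of neurexins, held 168, 134 and 100 (0.584). The membrane protein gene Tmem163 held 85, 64 and 40 (0.551), and the predicted gene LOC108168726 held 27, 14 and 11 (0.379). Erbb4, a neuregulin receptor of interneurons, had 441, 403 and 224 peaks and a ratio of 0.669 (0.583 to 0.767). In all 12 genes v3 held fewer peaks than v1 too, but that comparison uses the same v1 list. As shares of each list, v3 over v1 ran from 0.340 (Syt9) to 0.724 (Nxph1). The 15 genes past 2-fold also included Slc17a6, a vesicular glutamate transporter gene (16, 8 and 13 peaks), and Pax1, a paired-box gene (14, 8 and 10). Lmx1a, a homeobox gene of the roof plate and midbrain, held 42, 28 and 23. The rest were Stard5 (15, 8 and 4), Rab37 (20, 12 and 19), Crtam (18, 11 and 11), Hid1 (16, 10 and 6), Otop3 (14, 9 and 8) and Fbxo33 (17, 11 and 12). Rab37, Hid1 and Otop3 lie close together on chromosome 11. The intervals of Pax1, Hid1, Otop3 and Fbxo33 reach 1.

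On the higher side, the 11 reported genes were chosen by the highest lower bound of the interval. The predicted gene Gm7133 held 3 v1 peaks, 26 v2 peaks and 4 v3 peaks, a ratio of 6.34 (1.94 to 32.7), and the predicted gene Gm7135 held 3, 23 and 1 (5.61, 1.70 to 29.2). Wdpcp, a planar polarity gene of cilia, held 35, 133 and 26, a ratio of 2.78 (1.90 to 4.16). Tmem132d, a membrane protein gene, held 127, 350 and 211, a ratio of 2.02 (1.64 to 2.49). Myom3, a myomesin of the muscle M-band, held 7, 33 and 13 (3.45). Mei4, a gene of meiotic recombination, held 36, 112 and 31 (2.28), and Scaper, a cyclin A-binding protein gene, held 30, 98 and 41 (2.39).

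The X-linked gene Il1rapl2, an interleukin receptor accessory protein relative, held 61, 162 and 46 (1.94, 1.44 to 2.65). The RNA-binding gene Rbm18 held 2, 18 and 9, the adenylate kinase gene Ak8 10, 43 and 19, and the centrosomal gene Cep89 8, 34 and 13. For Wdpcp, Gm7135, Mei4 and Il1rapl2, v3 held fewer peaks than v1, and for the other 7 it held more. The v3 list is shorter, with 512023 peaks against 622754. As shares, v3 over v1 was 0.405 for Gm7135, 0.904 for Wdpcp, 0.917 for Il1rapl2 and 1.05 for Mei4. These are extremes of 10160 genes, and a repeat would be likely to give ratios nearer to 1.

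Many of the named genes stood closer to 1 among the peaks that v3 also held. Of the higher genes, the log2 ratio of Gm7135 went from 2.33 over all peaks to 0, that of Wdpcp from 1.46 to 0.42, that of Scaper from 1.246 to 0.33, that of Mei4 from 1.18 to 0.35 and that of Il1rapl2 from 0.95 to 0.24. Gm7133 went from 2.51 to 1.44, Tmem132d from 1.01 to 0.80 and Rbm18 from 2.49 to 2.37. On the lower side Prox1 went from -1.66 to -0.54, Meis1 from -1.17 to -0.51, Inpp4b from -0.79 to -0.23, Erbb4 from -0.58 to -0.27 and Zfp521 from -0.83 to -0.096. Syt9 went from -0.96 to -0.52, and Svep1 and Sfmbt2 turned to 0.078 and 0.091. This setting was chosen after seeing the data and leaves fewer peaks per gene.

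**Figure D3:**
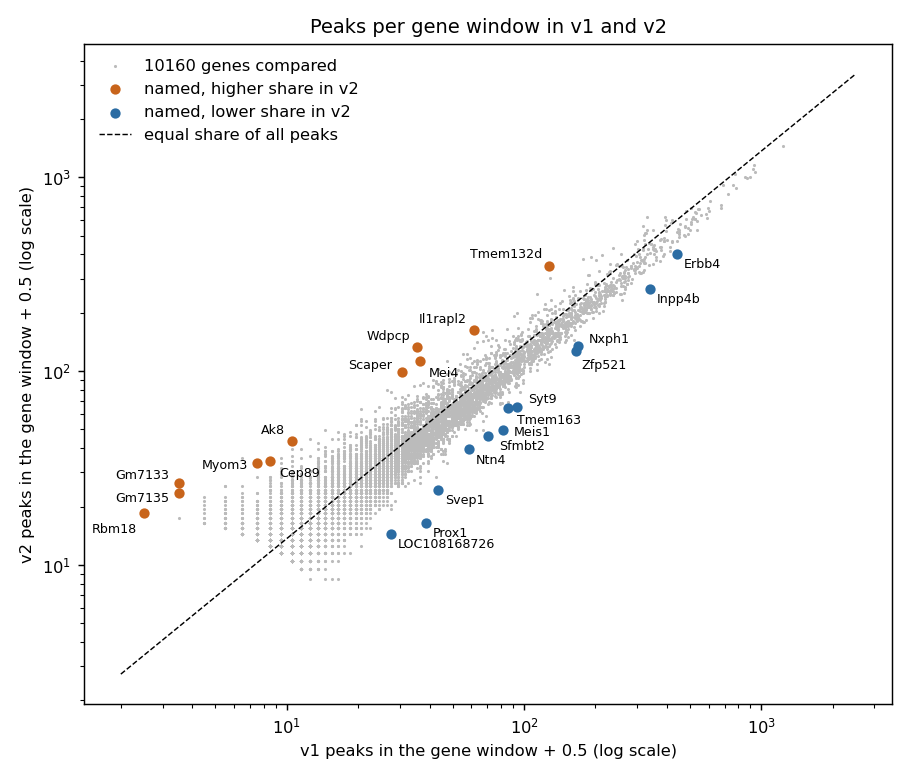
Peaks per gene window in v1 (horizontal) and v2 (vertical) plus 0.5, both on log scales, for 10160 protein-coding genes (grey), with the 11 named genes of higher share in v2 in orange and the 12 of lower share in blue. The dashed line marks equal shares of all peaks. Erbb4 and Inpp4b stand out among peak-rich genes on the lower side, and Gm7133 and Rbm18 have few v1 peaks.

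Within the loci, unmet peaks lay along the gene, while the promoters tabulated for Prox1, Meis1 and Wdpcp held a peak in both lists. In the Prox1 window, 23 of the 38 v1 peaks had no v2 counterpart, 20 of those were 500 bp wide, and v3 held a peak at 4 of them. The widest of these, 1729 bp at chr1:190134719-190136447, was called in v1 alone of the pair. Of the 16 v2 peaks there, 2 were unmet. In the Meis1 window, 34 of 81 v1 peaks were unmet, 20 of them 500 bp wide and 10 present in v3, against 3 of 49 v2 peaks. Counting only peaks wider than 500 bp, the log2 ratio was -1.92 for Prox1 and -1.61 for Meis1, farther from 0 than over all peaks. The reverse held at Wdpcp, where 100 of 133 v2 peaks were unmet, 74 of them 500 bp wide and 8 present in v3, against 2 of 35 v1 peaks. The longest stretch without a peak in the Wdpcp window was 39.1 kb in v1 and 12.1 kb in v2. At Gm7133, 24 of 26 v2 peaks were unmet and 3 of those were in v3.

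**Figure D4:**
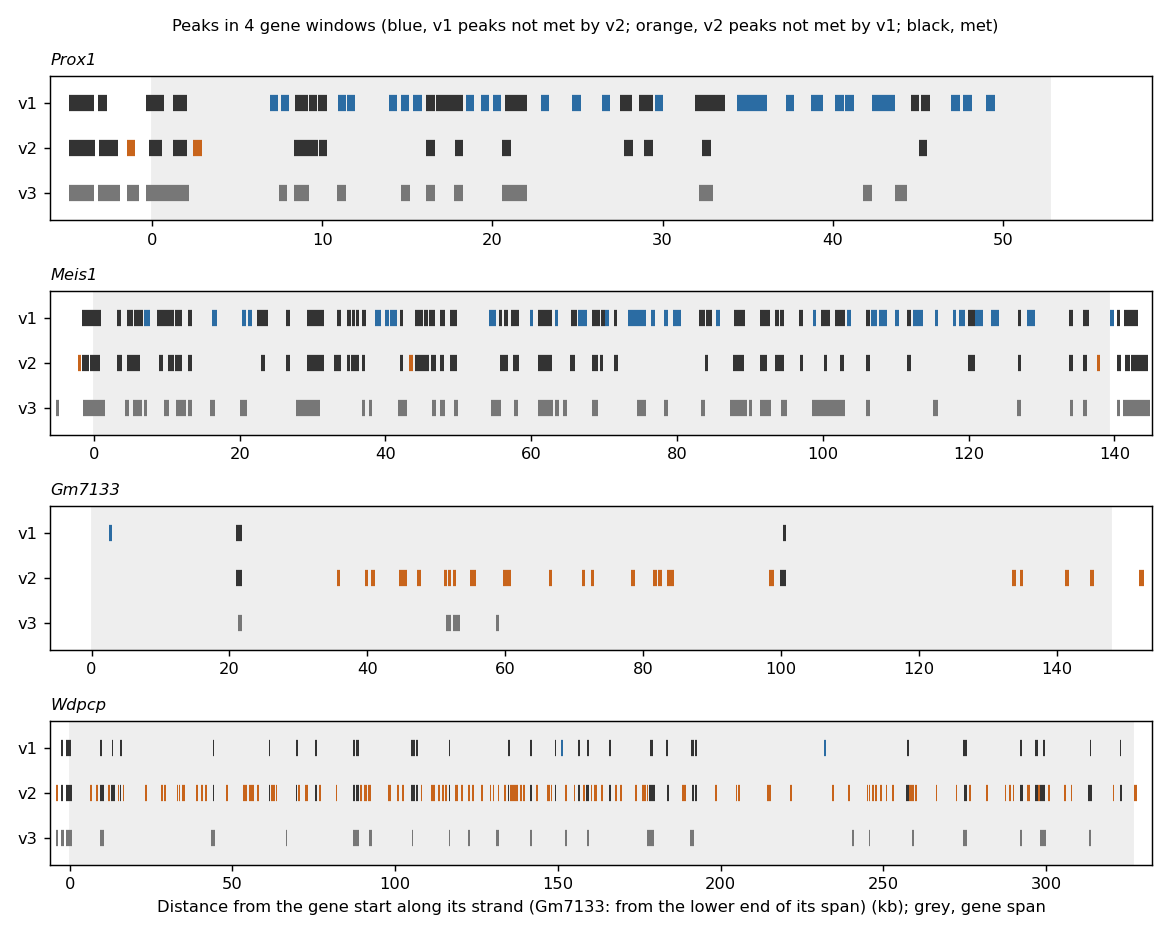
Positions of v1, v2 and v3 peaks in the windows of Prox1, Meis1, Gm7133 and Wdpcp, as distance in kb from the start of the gene along its strand, or, for Gm7133, whose strand was not tabulated, from the lower end of its span. Black blocks are peaks met between v1 and v2, blue blocks v1 peaks not met by v2, orange blocks v2 peaks not met by v1, and grey blocks v3 peaks. Blue blocks run along Prox1 and Meis1, and orange blocks along Gm7133 and Wdpcp.

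Cerebellar neuron genes had the lowest share ratio of the gene lists. The pooled ratio over the merged windows of the 14 cerebellar genes was 0.672 (0.542 to 0.833), against 0.942 over all protein-coding genes, and 13 of the 14 had a ratio below 1. Their median log2 ratio was -0.59 against 0 over all protein-coding genes, and it was -0.22 among peaks that v3 also held. Over all 21627 protein-coding genes, 10780 had a ratio below 1, 8970 had one above 1 and 1877 had no peak. The member counts of every list are to be read beside these. Eomes, a T-box gene of unipolar brush cells, held 9 peaks in v1 and 6 in v2, and Car8, a Purkinje cell gene, held 35 and 37 (0.774). None of the 6 members with at least 20 peaks was past 2-fold. The highest member with at least 10 peaks was Cbln3, with 5 and 6 (0.878, 0.223 to 3.64). The 1 member with a ratio above 1 had fewer than 10 peaks. Cbln1, a synaptic organiser gene of granule cells, held 5 and 3 (0.439), which is also too few peaks for the naming rule. Inhibitory neuron genes had a ratio of 0.811 (0.658 to 1.001) with 13 of 14 below 1, from Gad1, a GABA-synthesising enzyme, at 35 and 31 peaks to Pvalb at 9 and 13. Ependymal and choroid plexus genes were at 0.813 (0.674 to 0.983), with 8 of 12 below 1. The motile cilia gene Dnah11 held 67 and 49 peaks. Their median changed sign to 0.17 among peaks wider than 500 bp.

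Oligodendrocyte genes had a ratio of 0.854 (0.714 to 1.02) with 10 of 12 below 1, and Ermn, a myelin cytoskeleton gene, held 11 and 8 peaks. Voltage-gated potassium channel genes had 0.861 (0.803 to 0.923) with 19 of 22 below 1, and Kcnq5 held 288 and 360 peaks. Hippocampal and dentate genes had 0.867 (0.780 to 0.964), a list that contains Prox1. Long neuronal adhesion and channel genes, the peak-richest list, had 0.898 (0.875 to 0.922) with 12 of 15 below 1. Among them the receptor phosphatase gene Ptprd held 1231 and 1460 peaks, and the X-linked dystrophin gene Dmd stood out at 328 and 624 (1.39). Excitatory neuron genes were at 0.926, astrocyte genes at 0.951, microglia genes at 0.967 and oligodendrocyte precursor genes at 0.980, each with an interval that includes 1. The microglia median was above 0, at 0.14, with 8 of 12 members above 1. The astrocyte median turned to 0.12 with flanks of 20 kb, and the precursor median to 0.08 when centred on the median gene. Striatal neuron genes were at 1.07 (0.945 to 1.22) although 8 of 12 members were below 1 and their median was -0.43. Of the 410 and 601 peaks of that list, Rarb, a retinoic acid receptor gene, held 201 and 372.

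Collagen and skeletal muscle genes had a higher share in v2. Collagen genes had a ratio of 1.19 (1.11 to 1.27), with 35 of 44 above 1, 3 past 2-fold upwards and none downwards, and a median of 0.28. Over all protein-coding genes, 8970 were above 1 and 10780 below. Col6a2, a chain of collagen VI, held 4 v1 peaks, 21 v2 peaks and 5 v3 peaks. Skeletal muscle genes had 1.41 (1.10 to 1.82) with 8 of 12 above 1. Of the 5 with at least 20 peaks, 1 was past 2-fold upwards and none downwards. Ryr1, the calcium release channel of muscle, held 30, 73 and 34, and Tnnt3, a fast troponin, held 3, 11 and 5. The whole muscle list held 96 v1 and 185 v2 peaks, so Ryr1 weighs heavily in its ratio. The ratio without Ryr1 was not computed. Lymphocyte genes were at 1.39 (0.936 to 2.09) and erythroid genes at 1.28 (0.856 to 1.94), on 40 v1 peaks each, and both intervals include 1. The erythroid median changed sign to -0.12 among peaks also in v3, and the lymphocyte median to -0.07 with covered bases.

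Keratin and keratin-associated genes were at 1.20 (1.004 to 1.44), with Krt42 at 0 peaks in v1 and 10 in v2. Olfactory receptor genes were at 1.27 (1.15 to 1.41) over 1106 genes, of which 716 had no v1 peak, and their median of 0 moved to -0.45 with an equal pseudocount. Endothelial genes were at 1.16 (0.972 to 1.39), hepatocyte genes at 1.16 (0.809 to 1.68), mural and fibroblast genes at 1.06 and vomeronasal receptor genes at 1.04, and the intervals of these 4 lists include 1. The medians turned negative for endothelial genes among peaks also in v3 (-0.15), for hepatocyte genes with gene spans alone (-0.15), and for mural and fibroblast genes with covered bases (-0.08). The receptor and keratin families have close copies, and how well reads map there was not tested. X-linked brain genes were at 1.12 (1.05 to 1.20), with 11 of 19 above 1. Their median was 0.09, and -0.02 among peaks also in v3. Of the 1488 v1 and 2285 v2 peaks of that list, Dmd held 328 and 624.

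Lists of genes that every cell uses, and several other gene families, had intervals that include the 0.942 of all protein-coding genes. They were thus not told apart from that average, although some values were close to the hippocampal and long neuronal lists. Of the other lists below 0.942, the inhibitory neuron, ependymal and choroid plexus, oligodendrocyte, hippocampal and excitatory neuron intervals also include it. Those of the cerebellar, potassium channel and long neuronal lists do not. Proteasome subunits were at 0.916, housekeeping genes at 0.887, cytosolic ribosomal proteins at 0.884, mitochondrial complex I subunits at 0.868, immediate early genes at 0.934 and C2H2 zinc finger genes at 0.941. Hox genes were at 0.962 and clustered protocadherin genes at 1.07, and of these 8 lists only the C2H2 zinc finger genes had an interval that excludes 1. Of these, the Hox median turned to 0.13 among peaks also in v3 and the ribosomal median to 0.04 when centred on the median gene. Merged windows count a peak once where list members are neighbours.

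**Figure D5:**
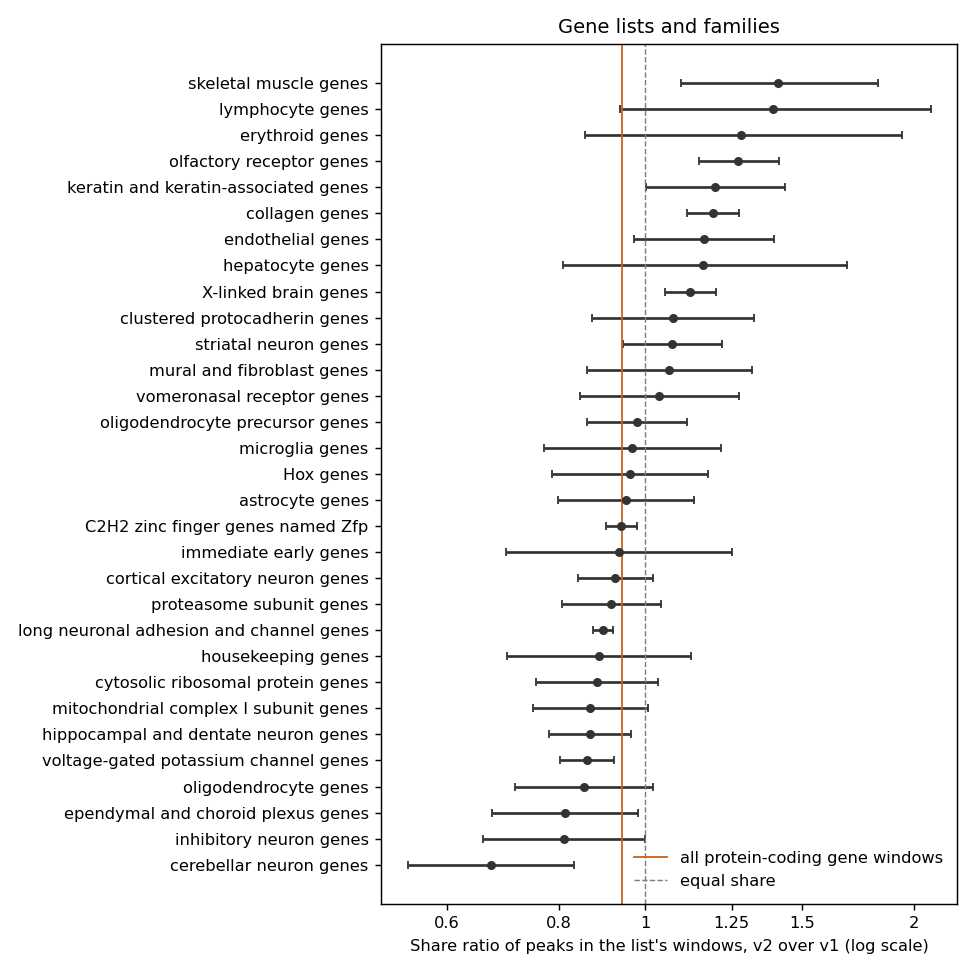
Share ratio of v2 over v1 for the peaks in the merged windows of each gene list (points, log scale) with its 95% counting interval (bars). The orange line marks all protein-coding genes at 0.942 and the dashed line equal shares. Cerebellar neuron genes lie lowest at 0.672 and skeletal muscle genes highest at 1.41.

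Over fixed windows of 1 Mb, more regions had a higher than a lower share in v2. Of 2503 compared windows, 98 (3.92%) were at least 1.5-fold higher in v2 and 18 (0.719%) at least 1.5-fold lower. The X held 49 of the higher windows, which is 34.5% of its 142, against 2.08% of the 2361 autosomal windows. The lowest window was 91 to 92 Mb on chromosome 9, which holds Zic1 and Zic4, zinc finger genes of cerebellar development, with 199 v1, 133 v2 and 76 v3 peaks (0.489, 0.390 to 0.612). Next came 70 to 71 Mb on chromosome 7 with the nuclear receptor gene Nr2f2 (89, 64 and 59 peaks, 0.526) and 44 to 45 Mb on chromosome 8 with the giant cadherin gene Fat1 (259, 194 and 86, 0.548). The window at 75 to 76 Mb on chromosome 4 holds Dmac1 and the end of Ptprd (225, 169 and 94, 0.550). A window without protein-coding genes at 52 to 53 Mb on chromosome 8 had 214, 162 and 18 (0.554).

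The highest windows were 65 to 66 Mb on X (21, 95 and 15 peaks, 3.31) and 110 to 111 Mb on X, which holds the POU homeobox gene Pou3f4 (27, 120 and 15, 3.25). Outside X the highest was 92 to 93 Mb on chromosome 17, with no protein-coding gene (24, 94 and 21, 2.87). The window at 69 to 70 Mb on chromosome 6 holds 58 V segments and V segment pseudogenes of the immunoglobulin kappa locus and had 40, 152 and 57 peaks (2.78). The window at 86 to 87 Mb on chromosome 2 holds 49 olfactory receptor genes and had 39, 118 and 18 (2.21). The window at 81 to 82 Mb on chromosome 9 holds the serotonin receptor gene Htr1b and Mei4 and had 104, 276 and 78 (1.94). In the V segment window v3 also had more peaks than v1, while in the windows of X, chromosome 17, the olfactory receptors and Htr1b it had fewer. These are counts not scaled to the shorter v3 list (512023 peaks against 622754), so a small deficit need not be a lower share.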

How the data were processed

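Per the labels, nuclei of mouse whole brain were profiled by single-cell combinatorial indexed ATAC-seq, with 1 library per version. The deposited lists give chromosome, start, end and a name for each peak, with no score, read count or barcode, so sequencing depth is unknown. The genome build is mm10 and the tools named are ArchR and MACS2, per the submitters' processing notes. Aligner, versions and threshold were not stated in the material used here. The smallest peak was 500 bp wide. Coordinates are 1-based.

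Overlaps, shares and ratios were computed with Python 3.11.15, numpy 2.4.6, pandas 2.3.3 and scipy 1.17.1, and the scripts were tested on simulated data. A share ratio is the peaks of v2 in a window as a share of all v2 peaks over the same share in v1, with an exact conditional binomial 95% interval. Log2 ratios used a pseudocount of 0.5 peaks scaled to each list's total. A peak belongs to a window if its midpoint lies in it. Genes with at least 20 peaks and 1 Mb windows with at least 50 peaks, summed over v1 and v2, were compared, and 2-fold and 1.5-fold are sizes, not tests. Gene spans (49550 genes) and promoters are RefSeq GRCm38.p6, the assembly of mm10. Starts from the promoter table replaced gene ends where strand was needed: within 1 kb of a start, 13294 genes had a v1 peak and 14120 a v2 peak.

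Named genes were the 12 with the highest lower bound and the 12 with the lowest upper bound of the interval, skipping overlapping windows, and from each gene list the member with the most peaks and those with the highest and lowest ratio among members with at least 10 peaks. Of the 12 with the highest bound, 11 are reported and 1 is not reported here. The named 1 Mb windows were the 5 highest and 5 lowest, and the 5 highest autosomal ones were added after seeing the data. The lists, members and settings were chosen with earlier results of these data known. The alternatives were a reciprocal overlap of 50%, only peaks wider than 500 bp, covered bases, autosomes only, protein-coding spans, other flanks, pseudocounts, minimums, window sizes and distances to a start, centring on the median gene and, chosen after seeing the data, only peaks that v3 also meets.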

Additional observations from a re-analysis of the deposited data

How the results depend on the processing

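No paired analysis was possible because each version is 1 library. With a reciprocal overlap of 50%, 68.8% of v1 peaks were met by v2 and 50.4% of v2 peaks by v1, and the counts of divided v1 peaks and joining v2 peaks were 0 by construction. With only peaks wider than 500 bp the shares met were 87.4% and 55.3%, with 15073 divided and 13293 joining peaks, since narrower partners were removed. There the difference in gene share was -3.26 points, 83 genes were higher, 38 windows of 1 Mb were lower, and the sparsest class of 100 kb windows had a ratio of 1.54. On autosomes only the shares met were 91.0% and 65.0%, 52 windows were higher, and the sparsest class, sorted anew and taken as a share of autosomal peaks, had 1.10. With covered bases the X ratio was 1.26, the difference in gene share -2.62 points, 33 windows were lower and the densest class had 0.881. With protein-coding spans the difference in gene share was -3.54 points, beside -3.05 with all genes. Flanks of 20 kb gave 236 higher and 26 lower genes, and centring on the median gene gave 9 lower. At least 40 peaks left 33 higher and 7 lower genes, and at least 1 peak gave 1269 and 614, so that 67.4% of the calls were higher beside 90.1% with at least 20 peaks. Windows of 500 kb gave 246 higher and 59 lower. In an alternative chosen after seeing the data, only peaks also in v3 entered. The shares met were then 95.9% and 82.1%, the X ratio 1.07 and the difference in gene share -0.88 points. It gave 11 higher genes, 8 of them among the 137, and 1 lower gene that was not among the 15, and 4 higher and 0 lower windows. There Svep1 and Sfmbt2 turned to log2 ratios of 0.078 and 0.091, Gm7135 fell to 0, and LOC108168726, Ntn4, Tmem163 and Nxph1 stood at -0.043, -0.37, -0.25 and -0.42. The cause of these shifts, beyond the smaller sets, was not tested. Of 161 values for the 23 named genes under the alternatives, 158 kept their sign. The other 3 were Gm7135, Svep1 and Sfmbt2 among peaks also in v3. The genes were chosen as extremes of these same lists, and another pseudocount or centring moved their values too little to change a sign. Most of this agreement was therefore fixed in advance. Depth and scores are unknown, so how strongly a region missing from a list was covered cannot be given.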

Other observations

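Long stretches without any peak were fewer in v2, and many of them lay on X. Stretches of 50 kb or more numbered 2434 in v1 (260 Mb in all) and 1383 in v2 (190 Mb), and 25.8% of the former and 23.6% of the latter were on X. The v1 stretches held 7879 v2 peaks and 2223 v3 peaks, and the v2 stretches held 1754 v1 peaks and 934 v3 peaks. The longest stretch was the same region of X in both lists, 5432 kb in v1 and 5425 kb in v2. On chromosome 7 a stretch of 2570 kb in v1 held no v2 peak and no v3 peak, and the widest one of v2 there, 4011 kb, held 7 v1 peaks and 1 v3 peak.

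Genes with spans of 100 kb and more had lower pooled ratios than shorter ones. Genes under 10 kb had a pooled ratio of 0.973, those of 10 to 30 kb 0.980, those of 30 to 100 kb 0.963, those of 100 to 300 kb 0.929 and those of 300 kb and over 0.910. The share of compared genes at least 2-fold higher in v2 was 0.503%, 1.06%, 1.83%, 0.985% and 0.725% in the same order, so the middle class held the most.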
